A study of Mus musculus with 72 samples.

Results

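The data described here are the levels of 10 transcripts encoded by the mitochondrial genome in mouse liver. The members were chosen by gene symbol and found in the count table through their Ensembl identifiers. They are the large ribosomal RNA mt-Rnr2, and the mRNAs mt-Nd1, mt-Nd2, mt-Nd4 and mt-Nd5 of complex I, mt-Cytb of complex III, mt-Co1, mt-Co2 and mt-Co3 of complex IV and mt-Atp6 of complex V. They are 10 of the 51912 genes in the table, of 19362 genes tested, and of the 15 mitochondrial rRNA and mRNA genes. All 10 passed the filter on low counts. RNA sequencing was done on 72 livers, 1 library per animal, in 12 groups of 6 mice. The groups were males (M) and females (F) of the inbred strains DBA/2J and C57BL/6J on a Control, a Medium Protein or a Low Protein diet. All mice started their diet at 10 weeks of age and stayed on it for 13 weeks. They were killed at 23 weeks of age after 16 h without food, having been housed at about 22 °C. Libraries were poly(A)-selected and stranded, so that a level here is that of the polyadenylated RNA captured.

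Mammalian mitochondrial DNA is a compact circle carried in many copies per cell. It encodes 13 mRNAs, 2 ribosomal RNAs and 22 transfer RNAs, and both strands are transcribed as long precursors that are cut into the mature RNAs. The ribosomal RNAs build the mitochondrial ribosome, and the 13 mRNAs encode core subunits of the respiratory chain and of ATP synthase. Liver is rich in mitochondria, which there oxidise fatty acids during fasting and house the first steps of the urea cycle. On the GRCm38 assembly with the GENCODE M21 annotation, the members lie on the mitochondrial chromosome between position 1094, where mt-Rnr2 starts, and position 15288, where mt-Cytb ends. All 10 are read from the same strand. Of the other genes, only mt-Nd6, at 13552 to 14070, is read from the opposite strand among the 15. Neighbouring genes overlap by 43 bases (mt-Atp8 and mt-Atp6), by 1 base (mt-Atp6 and mt-Co3), by 7 bases (mt-Nd4l and mt-Nd4) and by 14 bases on opposite strands (mt-Nd5 and mt-Nd6). Whether counting used the strand is not given in the sources used here, so the last pair may share reads. Of the 22 transfer RNA genes, 9 had a count in any library, and none had more than 3, so they are not described further.

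Libraries held 26937177 to 38447504 counts (median 32390194). The 10 liver cell markers of the hepatocyte list were found in every group, at a summed level of 44599 to 93203 CPM, the usual unit of counts scaled to library size. No library went against its sex label, and the levels of Hc and Glo1, which differ between these strains, did not overlap between them. Ribosomal-like RNA took 0.0391% to 35% of a library (median 0.166%), and over 5% in 4 libraries. It is the summed counts of 5 genes that include Lars2, a protein-coding gene. No 2 libraries held identical values. The plate-like codes of the libraries run along with the groups, so an effect of position cannot be told apart from strain, sex or diet. In whole liver, fewer cells of a type and less RNA per cell cannot be told apart.

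Part of the mitochondrial genome has a nearly exact copy in the nucleus, and this copy bears on how 5 of the members were counted. The copy is annotated as 7 pseudogenes on chromosome 1, from 24611535 to 24616197 (4663 bases), at 99% identity or more. The 5 members with such a partner are mt-Co1, mt-Co2, mt-Atp6, mt-Co3 and mt-Nd4. A stretch of 4 pairs is shown. For mt-Co1 it holds the base that differs in the copy, and for the others it holds the end of the annotated copy. For mt-Co1 that part is bases 1063 to 1545 of 1545, and the bases before it have no partner in Gm29216. Each sequence runs 5′ to 3′ on the strand of its gene, from the GENCODE M21 transcripts (GRCm38). Capitals mark bases that differ in the copy or lie beyond its annotated end. Bases beyond that end were not compared with the nuclear sequence, so those capitals do not show a difference.
mt-Atp6 (chrM:8548-8607, plus strand): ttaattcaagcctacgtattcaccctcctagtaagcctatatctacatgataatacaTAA
Gm10925 (chr1:24613974-24614030, minus strand): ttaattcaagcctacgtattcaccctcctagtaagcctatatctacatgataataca
mt-Co1 (chrM:6390-6449, plus strand): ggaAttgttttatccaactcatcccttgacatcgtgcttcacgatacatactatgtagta
Gm29216 (chr1:24616129-24616188, minus strand): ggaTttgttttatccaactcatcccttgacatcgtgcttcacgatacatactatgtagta
mt-Co2 (chrM:7637-7696, plus strand): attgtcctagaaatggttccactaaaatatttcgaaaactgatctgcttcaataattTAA
Gm28661 (chr1:24614885-24614941, minus strand): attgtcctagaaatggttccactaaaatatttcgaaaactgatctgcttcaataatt
mt-Co3 (chrM:9331-9390, plus strand): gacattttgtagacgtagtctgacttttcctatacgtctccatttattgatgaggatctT
Gm28437 (chr1:24613189-24613247, minus strand): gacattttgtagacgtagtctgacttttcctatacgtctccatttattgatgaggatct

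mt-Atp6 and Gm10925 were identical over 678 bases, mt-Co2 and Gm28661 over 681, mt-Co3 and Gm28437 over 783, and mt-Nd4 and Gm28439 over 876. mt-Co1 and Gm29216 differed at 1 of 483 bases, A1066T counted from the 5′ end of mt-Co1. The deposited counts divided these pairs very unevenly. Of the counts of a pair, mt-Co2 held 0% to 4.37% (median 0.913%), mt-Co3 0.733% to 13.8% (median 5.91%), mt-Atp6 9.93% to 74.4% (median 38.1%) and mt-Co1 86.4% to 95% (median 90.1%) across the 72 libraries. Most counts of mt-Co2 and mt-Co3 thus stand under the pseudogene names, and mt-Atp6 shifted between the names from library to library. Gm28439 held at most 0.266 CPM, so mt-Nd4 was hardly touched. mt-Nd1, mt-Nd2, mt-Nd5, mt-Cytb and mt-Rnr2 had no partner at 99% identity. Because reads within the shared bases match both genes equally, results are given for the gene alone, for the gene plus its copy, or both. The sum of the gene and its copy is called the copy-summed level. Ratios of mt-Rnr2 and mt-Nd6 to the mRNAs, and shares of all counts, used the genes alone unless copies are said to be added. The copy-summed level was added after the data were seen.

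**Figure D1:**
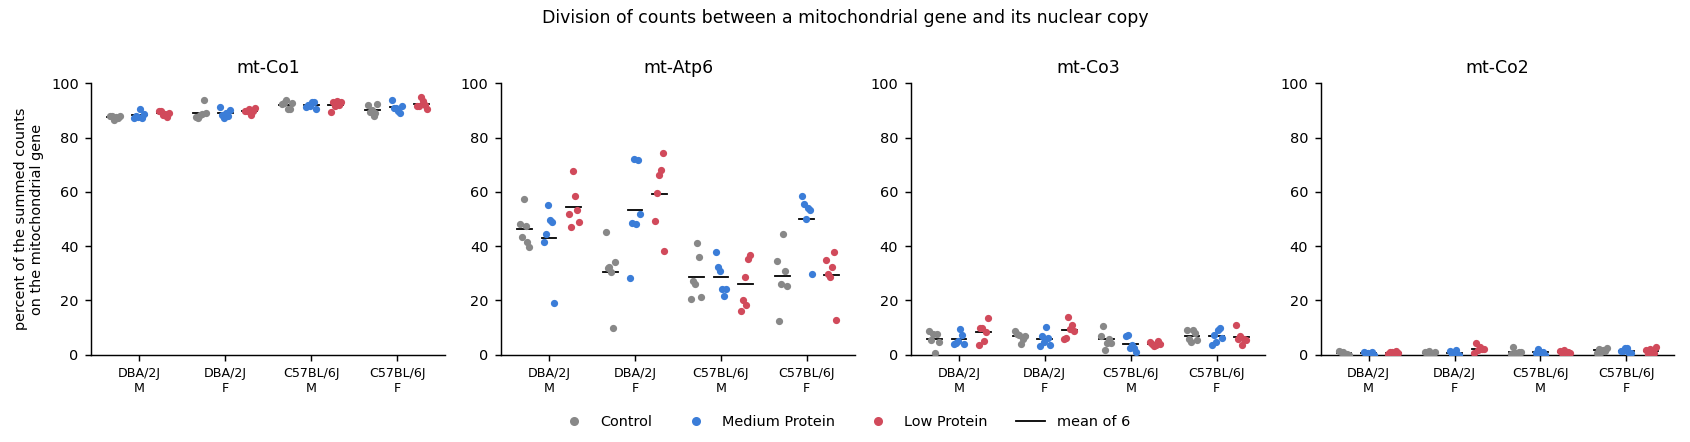
Percent of the counts of each mitochondrial gene and its nuclear copy that the deposited table gives to the mitochondrial gene, for mt-Co1, mt-Atp6, mt-Co3 and mt-Co2, with 1 point per library and the groups along the horizontal axis. mt-Co2 stayed at or below 4.37% and mt-Co1 at or above 86.4%, while mt-Atp6 ranged over 9.93% to 74.4%.

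Levels in CPM were scaled by trimmed mean of M values (TMM), and levels of different genes are compared only per kilobase of gene. As the mean of the 12 group means, mt-Rnr2 stood at 97253 CPM per kilobase, far above all mRNAs. Copy-summed mt-Co1 (7057) and mt-Co3 (5542), both subunits of the proton-pumping cytochrome c oxidase, followed. Next came copy-summed mt-Co2 (2931), its copper-binding subunit, and copy-summed mt-Atp6 (2117), subunit a of ATP synthase, all in CPM per kilobase. Lowest were mt-Nd1 (1351), mt-Cytb (1195), mt-Nd4 (734), mt-Nd2 (614) and mt-Nd5 (524 CPM per kilobase). Outside the 10, mt-Rnr1, the small ribosomal RNA, averaged 32298, mt-Nd3 850, mt-Atp8 258, mt-Nd6 165 and copy-summed mt-Nd4l 130 CPM per kilobase. These orders hold for captured RNA. In human cells mt-Nd6 is known to lack a poly(A) tail, and tails were not measured here.

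**Figure D2:**
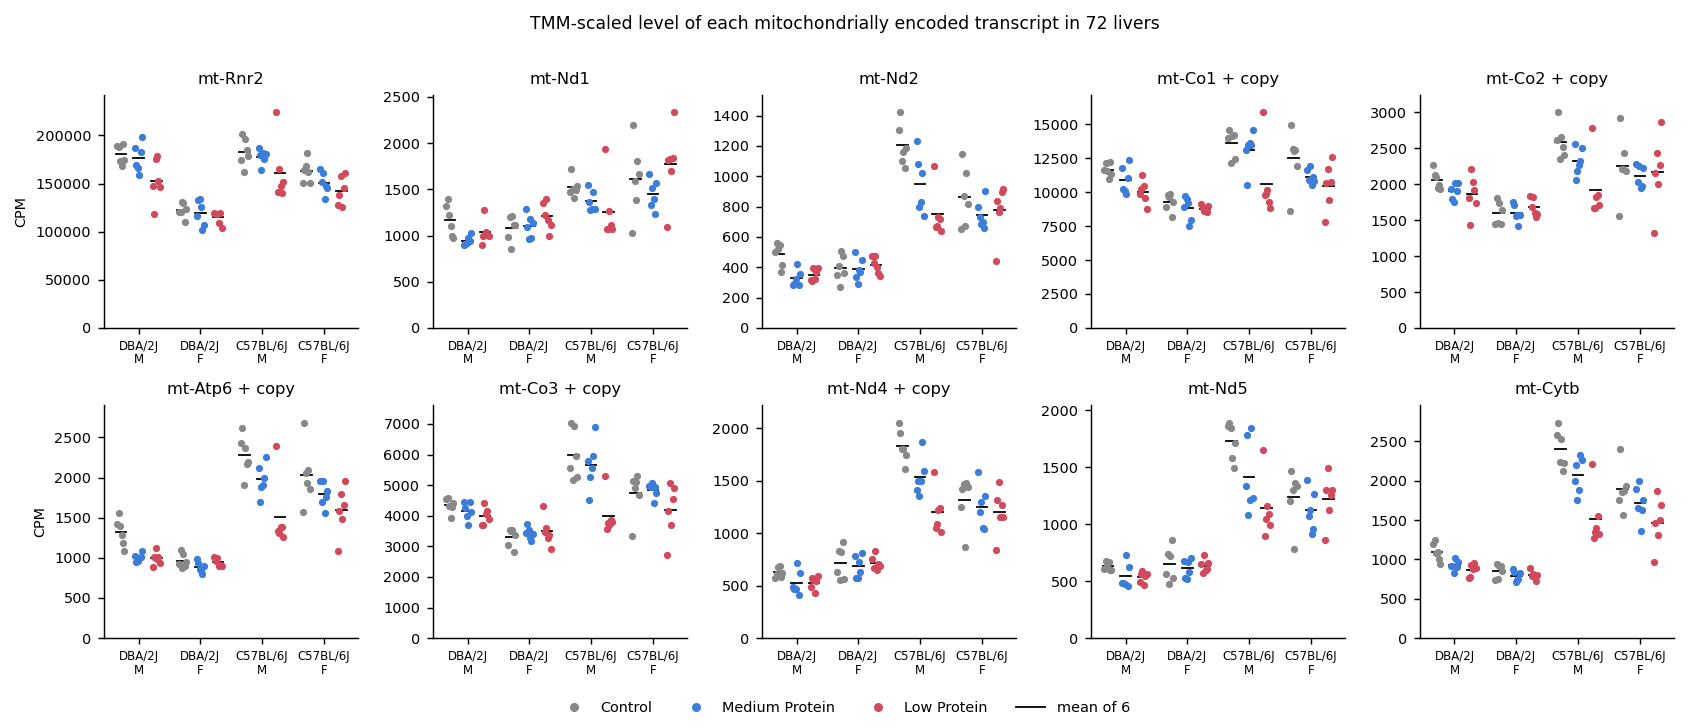
Level of each of the 10 transcripts in CPM (TMM-scaled, linear axis from 0), by strain and sex along the horizontal axis and diet by colour, with points for libraries and a black line at the mean of 6. Values are copy-summed for mt-Co1, mt-Co2, mt-Atp6, mt-Co3 and mt-Nd4. The DBA/2J groups lie below the C57BL/6J groups for mt-Nd2, mt-Nd4, mt-Nd5, mt-Cytb and mt-Atp6, and mt-Rnr2 in DBA/2J males reaches the level of C57BL/6J males.

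The members differed widely in how much they varied across the 12 groups. The ratio of the highest to the lowest group mean was 1.55 for copy-summed mt-Co1, 1.59 for mt-Rnr2, 1.63 for copy-summed mt-Co2, 1.82 for copy-summed mt-Co3 and 1.87 for mt-Nd1. It was 2.57 for copy-summed mt-Atp6, 3.03 for mt-Cytb, 3.22 for mt-Nd5, 3.45 for mt-Nd4 and 3.69 for mt-Nd2. The 3 largest ratios were those of mt-Nd5, mt-Nd4 and mt-Nd2, whereas mt-Nd1 of the same complex varied less than mt-Cytb and mt-Atp6. C57BL/6J males on Control had the highest mean of 9 members, and C57BL/6J females on Low Protein that of mt-Nd1 (1769 ± 396 CPM, SD, n = 6). The group means of each member mRNA followed the mean of the other 8 with Pearson's r of 0.805 (mt-Co1) to 0.987 (mt-Cytb) over the 12 groups, and mt-Rnr2 followed them with r = 0.56. These correlations describe group means that share libraries and scaling.

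mt-Cytb, the cytochrome b core of complex III, shows the order of the groups. In C57BL/6J males it averaged 2406 ± 244 CPM on Control, 2069 ± 227 on Medium Protein and 1518 ± 355 on Low Protein (SD, n = 6 each, as for all group means here). In C57BL/6J females it averaged 1896 ± 280 CPM on Control, 1713 ± 225 on Medium Protein and 1465 ± 314 on Low Protein. In DBA/2J males it averaged 1093 ± 113 CPM on Control, 924 ± 63.1 on Medium Protein and 867 ± 80.1 on Low Protein. DBA/2J females were lowest, with 856 ± 90.3 CPM on Control, 794 ± 64.2 on Medium Protein and 800 ± 52.2 on Low Protein. All 6 DBA/2J means stood below all 6 C57BL/6J means. Neighbouring means in the order differed by less than the larger of their SDs, except at 3 steps. These were between the Control and Medium Protein males of C57BL/6J, between the Low Protein females of C57BL/6J and the Control males of DBA/2J, and between the Control and Medium Protein males of DBA/2J.

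mt-Rnr2 had another order. It averaged 180695 ± 9626 CPM on Control, 177034 ± 15065 on Medium Protein and 153130 ± 22175 on Low Protein in DBA/2J males. C57BL/6J males had 182910 ± 14541 CPM on Control, 177926 ± 7938 on Medium Protein and 161421 ± 31995 on Low Protein. Males of the strains thus differed by less than their SDs on each diet. DBA/2J females averaged 122601 ± 7782, 119514 ± 13347 and 114828 ± 6779 CPM on Control, Medium Protein and Low Protein. C57BL/6J females averaged 162802 ± 11880, 150710 ± 11128 and 142687 ± 14863 CPM on the same diets.

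With copies summed, the largest fold differences of the members in any contrast were those between the strains, in mRNAs of complexes I, III and V. Averaged over the 3 diets, 6 of the 10 members taken alone were lower in DBA/2J than in C57BL/6J males, and 9 copy-summed, with none higher (edgeR quasi-likelihood test, Benjamini-Hochberg adjusted p under 0.05). In the background, 51.1% of tested genes passed in either direction and 26% were lower. In females 8 members alone and 10 copy-summed were lower in DBA/2J, against a background of 49.8% called and 25.7% lower. limma-voom and DESeq2 also called 6 members in males and 8 in females.

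Among the complex I members, mt-Nd4 had the largest fold difference in males. It stood at 577, 613 and 689 CPM (lowest, median and highest of 6) in DBA/2J males on Control, against 1610, 1800 and 2053 CPM in C57BL/6J males on Control. The ranges did not overlap. Over the diets the log2 fold change of DBA/2J over C57BL/6J was -1.42 in males (SE 0.08, adjusted p = 6.54e-26, edgeR) and -0.83 in females (SE 0.07, adjusted p = 2.67e-15, edgeR). mt-Nd5 stood at 596, 623 and 681 CPM in DBA/2J males on Control, against 1495, 1779 and 1892 CPM in C57BL/6J males. Its log2 fold change was -1.31 in males (SE 0.08) and -0.92 in females (SE 0.08). mt-Nd2 stood at 366, 512 and 563 CPM in DBA/2J males on Control, against 1057, 1170 and 1421 CPM in C57BL/6J males. Its log2 fold change was -1.31 in males (SE 0.09) and -0.99 in females (SE 0.09). For mt-Nd4, mt-Nd5 and mt-Nd2 the ranges of the strains stood apart in 5 of the 6 combinations of sex and diet. Whether these differences between strains themselves differ between the sexes was not tested. mt-Nd1 departed least among the complex I members, by -0.40 in males (SE 0.07, adjusted p = 6.17e-06, edgeR) and -0.51 in females (SE 0.07, adjusted p = 3.03e-08, edgeR).

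In complex III, mt-Cytb was lower in DBA/2J by the same amount in each sex, -1.04 on the log2 scale (SE 0.06 in each, adjusted p = 8.50e-23 in males and 6.35e-23 in females, edgeR). Its strain ranges were apart in 6 of 6 combinations. In Control females it stood at 743, 886 and 948 CPM in DBA/2J, against 1565, 1860 and 2405 CPM in C57BL/6J.

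In complex V, mt-Atp6 depended on how the copy was handled. Copy-summed, it stood at 870, 934 and 1099 CPM in DBA/2J females on Control, against 1571, 1992 and 2685 CPM in C57BL/6J females. Its ranges were apart in 6 of 6 combinations, and its log2 fold change was -0.79 in males (SE 0.06, adjusted p = 3.54e-17, edgeR) and -0.95 in females (SE 0.06, adjusted p = 1.10e-20, edgeR). The gene alone differed by 0.02 in males (SE 0.14, adjusted p = 0.911, edgeR) and by -0.52 in females (SE 0.14, adjusted p = 0.00101, edgeR). Its copy Gm10925 differed by -1.28 in males and -1.26 in females.

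The complex IV mRNAs differed less. Copy-summed mt-Co1, the catalytic subunit, was lower in DBA/2J by 0.19 in males and 0.34 in females, with log2 fold changes of -0.19 (SE 0.06, adjusted p = 0.00476, edgeR) and -0.34 (SE 0.06, adjusted p = 1.31e-06, edgeR). Copy-summed mt-Co2 differed by -0.22 in males and -0.43 in females, and copy-summed mt-Co3 by -0.30 and -0.43, all past the threshold. Alone, mt-Co3 differed by 0.24 in males (adjusted p = 0.351, edgeR) and -0.33 in females (adjusted p = 0.198, edgeR), with neither past the threshold. mt-Rnr2 differed by -0.03 in males (SE 0.06, adjusted p = 0.643, edgeR) and by -0.35 in females (SE 0.06, adjusted p = 2.12e-07, edgeR).

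The 5 mitochondrial rRNA and mRNA genes outside the 10 were all lower in DBA/2J in each sex. mt-Nd6, the complex I subunit of the opposite strand, had log2 fold changes of -1.52 in males and -1.55 in females (SE 0.11 in each), and its ranges stood apart in 6 of 6 combinations. mt-Rnr1 had -0.84 in males and -0.35 in females, mt-Atp8 -0.75 and -0.54, copy-summed mt-Nd4l -1.05 and -0.88, and copy-summed mt-Nd3 -0.45 and -0.75.

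**Figure D3:**
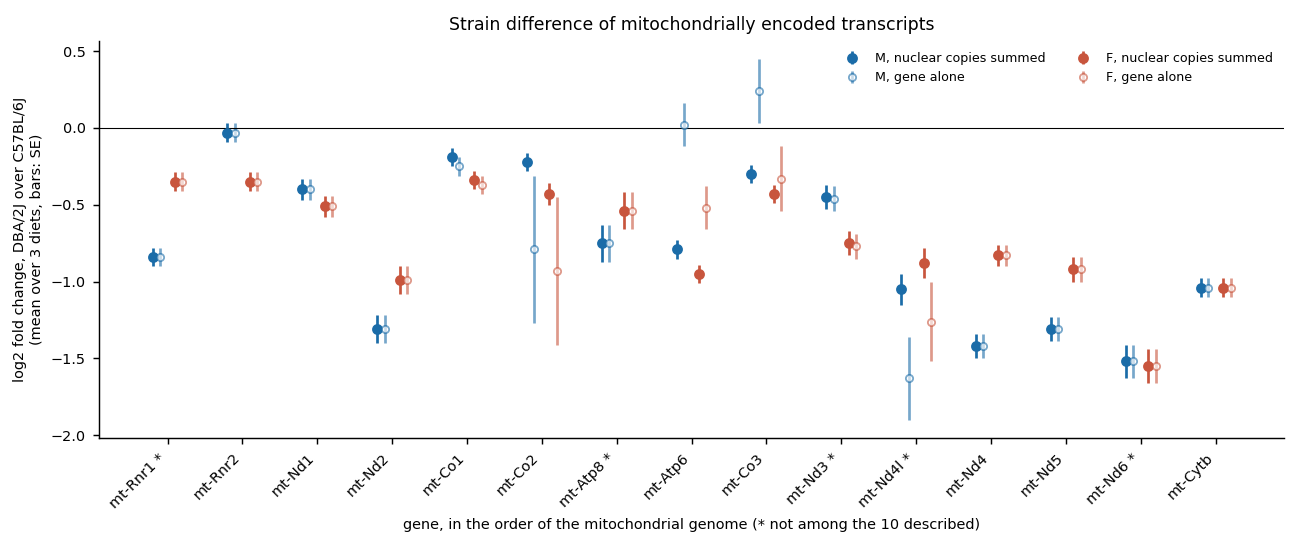
Log2 fold change of DBA/2J over C57BL/6J, mean over the 3 diets with its SE, for the 15 mitochondrial rRNA and mRNA genes in genome order (horizontal axis), in males (blue) and females (red). Filled points are copy-summed, open points the gene alone, and an asterisk marks the 5 genes that are not members. mt-Rnr2 in males lies at -0.03, mt-Nd4 in males at -1.42 and mt-Nd6 below -1.5 in each sex, and for mt-Atp6 and mt-Co3 in males the sign turns between alone and copy-summed.

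Counted by library and copy-summed, every DBA/2J library lay below every C57BL/6J library for 8 members in Control males (8.54% of tested genes did so), 8 in Medium Protein males (6.6%) and 5 in Low Protein males (7.16%). In females the copy-summed counts were 4 on Control (5.78%), 9 on Medium Protein (6.89%) and 5 on Low Protein (7.14%). For the genes alone the counts were 6 on Control (8.54% of tested genes), 5 on Medium Protein (6.58%) and 4 on Low Protein (7.16%) in males, and 3 on Control (5.78%), 6 on Medium Protein (6.88%) and 4 on Low Protein (7.13%) in females. No member had every DBA/2J library above every C57BL/6J library in any of the 6.

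Ratios within a library do not depend on scaling between libraries, and they show that the strains differed in the make-up of the mitochondrial RNA. Each was tested by an exact permutation test, 6 libraries against 6, two-sided, adjusted over the 24 comparisons of that measure. The smallest p such a test can give is 0.00216. Of the copy-summed counts of the 9 member mRNAs, the share of mt-Co1 was higher in DBA/2J in 6 of 6 combinations, by 0.15 to 0.28 on the log2 scale. The shares of mt-Nd2 (-0.44 to -1.01), mt-Cytb (-0.45 to -0.64) and mt-Atp6 (-0.29 to -0.49) were lower in 6 of 6. Those of mt-Nd4 and mt-Nd5 were lower in 5 of 6, by up to 1.04 for mt-Nd4, whose log2 share was -5.23 ± 0.15 in DBA/2J males on Control and -4.18 ± 0.12 in C57BL/6J males on Control, a difference of -1.04 (adjusted p = 0.013, exact permutation). The shares of mt-Nd1 and mt-Co3 passed the threshold between strains in 0 of 6.

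The ratio of mt-Rnr2 to the 13 mRNAs was higher in DBA/2J males than in C57BL/6J males on Control and Medium Protein. On Control its log2 was 3.54 ± 0.06 in DBA/2J males against 2.99 ± 0.08 in C57BL/6J males (difference 0.55, adjusted p = 0.00866, exact permutation). On Medium Protein it was 3.67 ± 0.08 in DBA/2J males against 3.10 ± 0.09 in C57BL/6J males (difference 0.57, adjusted p = 0.00866, exact permutation). On Low Protein it was 3.50 ± 0.20 in DBA/2J males against 3.28 ± 0.11 in C57BL/6J males (difference 0.22, adjusted p = 0.085, exact permutation), which did not pass. Of the female contrasts, Medium Protein passed, with 3.27 ± 0.11 in DBA/2J and 3.05 ± 0.04 in C57BL/6J (difference 0.22, adjusted p = 0.00866, exact permutation). The ratio of mt-Nd6 to the 12 mRNAs of the other strand was lower in DBA/2J in 6 of 6, by 0.90 to 1.14 on the log2 scale. In females on Low Protein its log2 was -8.33 ± 0.19 in DBA/2J and -7.19 ± 0.17 in C57BL/6J (difference -1.14, adjusted p = 0.0104, exact permutation). These ratios used the mRNA counts of the genes alone. With nuclear copies added, 3 strain contrasts of the mt-Rnr2 ratio and 6 of the mt-Nd6 ratio passed, as many as with the genes alone. The ratio of mt-Rnr1 to mt-Rnr2 differed between strains in males, by -1.05 on Control, -0.87 on Medium Protein and -0.51 on Low Protein, and lay within 0.04 of equality in females. This last ratio was chosen after the data were seen.

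**Figure D4:**
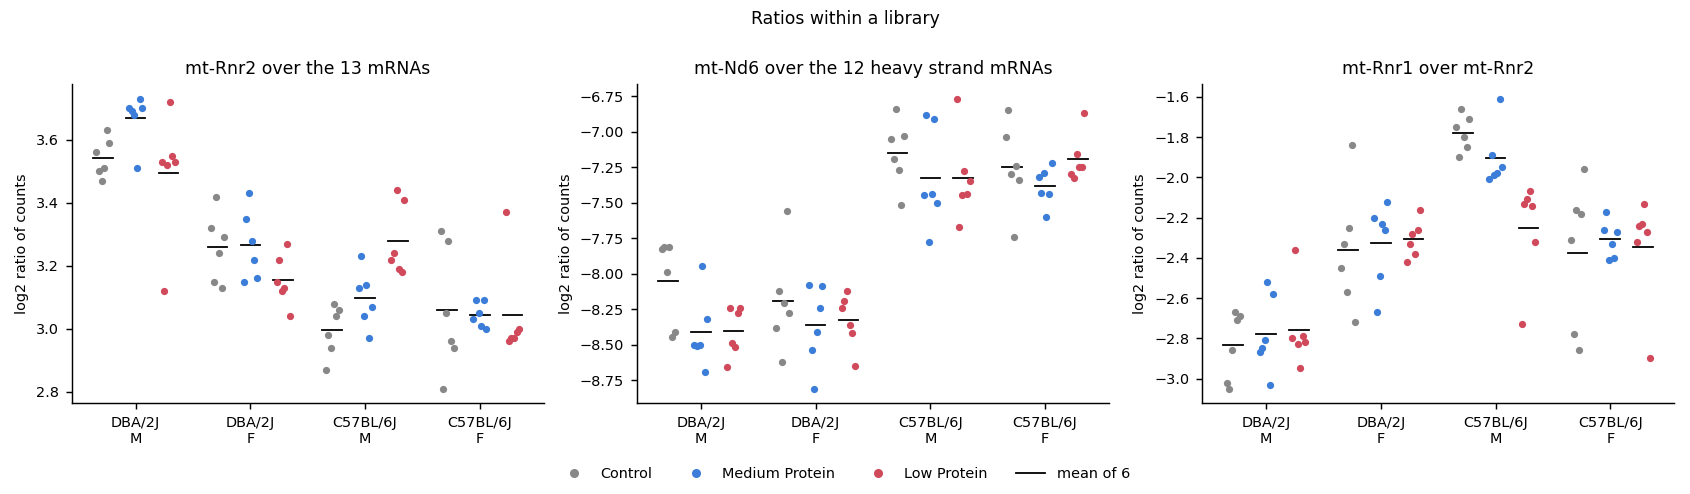
Log2 ratios of counts within each library (points, with the mean of 6) for mt-Rnr2 over the 13 mRNAs, mt-Nd6 over the 12 mRNAs of the other strand, and mt-Rnr1 over mt-Rnr2, by strain and sex with diet by colour. DBA/2J lies lower for mt-Nd6 in each sex, and only in males do the strains stand apart for mt-Rnr1 over mt-Rnr2, where DBA/2J on Control averages -2.83 and C57BL/6J on Control -1.78.

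The share of all counts that fell on the 15 genes, most of it ribosomal RNA, also differed by strain, above all in females. It was 17.7% ± 0.697 in DBA/2J females and 22.9% ± 0.676 in C57BL/6J females on Control, 17.4% ± 1.39 in DBA/2J and 21% ± 1.24 in C57BL/6J females on Medium Protein, and 16.4% ± 0.799 in DBA/2J and 20.2% ± 0.929 in C57BL/6J females on Low Protein (adjusted p = 0.013 each, exact permutation). The ranges did not overlap on any diet. In males it was 20.2% ± 1.31 in DBA/2J and 22% ± 3.56 in C57BL/6J on Control (adjusted p = 0.44, exact permutation). With ribosomal-like RNA left out of the total, the Control share was 20.6% ± 0.647 in DBA/2J males and 23.9% ± 1.11 in C57BL/6J males (adjusted p = 0.00866, exact permutation). With mt-Rnr1 and mt-Rnr2 left out of the share and the total, 5 of the 6 strain contrasts passed, so the mRNA share differed in males as well.

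Diet differences were most numerous in C57BL/6J males. On Low Protein against Control, 7 of the 10 members taken alone fell and none rose (edgeR, adjusted p under 0.05), where 9.78% of tested genes passed in either direction and 5.7% fell. Copy-summed, 8 fell, against 9.79% and 5.7% of genes. The members that did not pass copy-summed were mt-Rnr2 and mt-Nd1. limma-voom called 6 members and DESeq2 called 7.

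Of the complex I mRNAs, mt-Nd2 stood at 642, 696 and 1064 CPM on Low Protein, against 1057, 1170 and 1421 CPM on Control (lowest, median and highest of 6). All but the highest Low Protein library lay below every Control library, and the log2 fold change was -0.68 (SE 0.15, adjusted p = 9.29e-04, edgeR). mt-Nd4 stood at 1011, 1155 and 1580 CPM on Low Protein, against 1610, 1800 and 2053 CPM on Control, without overlap (log2 fold change -0.61, SE 0.13, adjusted p = 7.35e-04, edgeR). mt-Nd5 stood at 893, 1069 and 1651 CPM on Low Protein, against 1495, 1779 and 1892 CPM on Control (log2 fold change -0.60, SE 0.14, adjusted p = 0.00192, edgeR). mt-Nd1 stood at 1067, 1091 and 1931 CPM on Low Protein, against 1405, 1497 and 1723 CPM on Control, so that the highest library of the comparison was a Low Protein one. Its log2 fold change was -0.28 (SE 0.13, adjusted p = 0.171, edgeR).

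mt-Cytb stood at 1272, 1373 and 2215 CPM on Low Protein, against 2118, 2384 and 2739 CPM on Control (log2 fold change -0.66, SE 0.11, adjusted p = 1.73e-05, edgeR). Copy-summed mt-Atp6 stood at 1257, 1357 and 2398 CPM on Low Protein, against 1908, 2280 and 2620 CPM on Control (log2 fold change -0.59, SE 0.11, adjusted p = 1.27e-04, edgeR). These had the smallest adjusted p among the members together with copy-summed mt-Co3, the third subunit of the catalytic core. mt-Co3 stood at 3557, 3767 and 5309 CPM on Low Protein, against 5181, 5765 and 7047 CPM on Control, copy-summed (log2 fold change -0.58, SE 0.11, adjusted p = 7.04e-05, edgeR). Copy-summed mt-Co2 stood at 1668, 1768 and 2786 CPM on Low Protein, against 2346, 2564 and 2999 CPM on Control (log2 fold change -0.43, SE 0.11, adjusted p = 0.00671, edgeR). Copy-summed mt-Co1 stood at 8806, 9830 and 15867 CPM on Low Protein, against 12174, 14043 and 14551 CPM on Control (log2 fold change -0.35, SE 0.10, adjusted p = 0.0159, edgeR). Its call was lost without Low Protein replicate 5 or 6, at an adjusted p of up to 0.0589 (edgeR).

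mt-Rnr2 stood at 139720, 149536 and 223973 CPM on Low Protein, against 162247, 181426 and 201572 CPM on Control, with overlapping ranges (log2 fold change -0.18, SE 0.10, adjusted p = 0.257, edgeR). The other ribosomal RNA, mt-Rnr1, did fall. It stood at 30402, 32999 and 38249 CPM on Low Protein, against 51272, 52993 and 56273 CPM on Control, without overlap (log2 fold change -0.66, SE 0.11, adjusted p = 1.32e-05, edgeR). Within libraries, the log2 ratio of mt-Rnr2 to the 13 mRNAs was 3.28 ± 0.11 on Low Protein and 2.99 ± 0.08 on Control (difference 0.29, adjusted p = 0.00866, exact permutation). That of mt-Rnr1 to mt-Rnr2 was -2.25 ± 0.25 on Low Protein and -1.78 ± 0.09 on Control (difference -0.47, adjusted p = 0.00866, exact permutation), and neither pair of ranges overlapped. The share of all counts on the 15 genes was 21.2% ± 3.38 on Low Protein and 22% ± 3.56 on Control (adjusted p = 0.873, exact permutation). mt-Atp8 (-0.88), mt-Nd3 (-0.51), mt-Nd6 (-0.56) and copy-summed mt-Nd4l (-0.54) also fell.

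A single library weighed on these values. With copies summed, Low Protein male replicate 1 of C57BL/6J was the highest of its group by a gap wider than the range of the other 5 libraries, for each of the 10 members. For mt-Atp6 alone, the log2 fold change was -0.81 with this library and -0.82 without it. Without it, 9 members alone and all 10 copy-summed fell, with mt-Rnr2 at -0.30 (adjusted p = 0.0276, edgeR) and mt-Nd1 at -0.44 (adjusted p = 0.0125, edgeR). Scaling mattered too. By library totals, the median of all tested genes moved to 0.26 and 4 members alone, or 6 copy-summed, passed. Without the 4 libraries over 5% ribosomal-like RNA the counts stayed at 7 and 8.

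**Figure D5:**
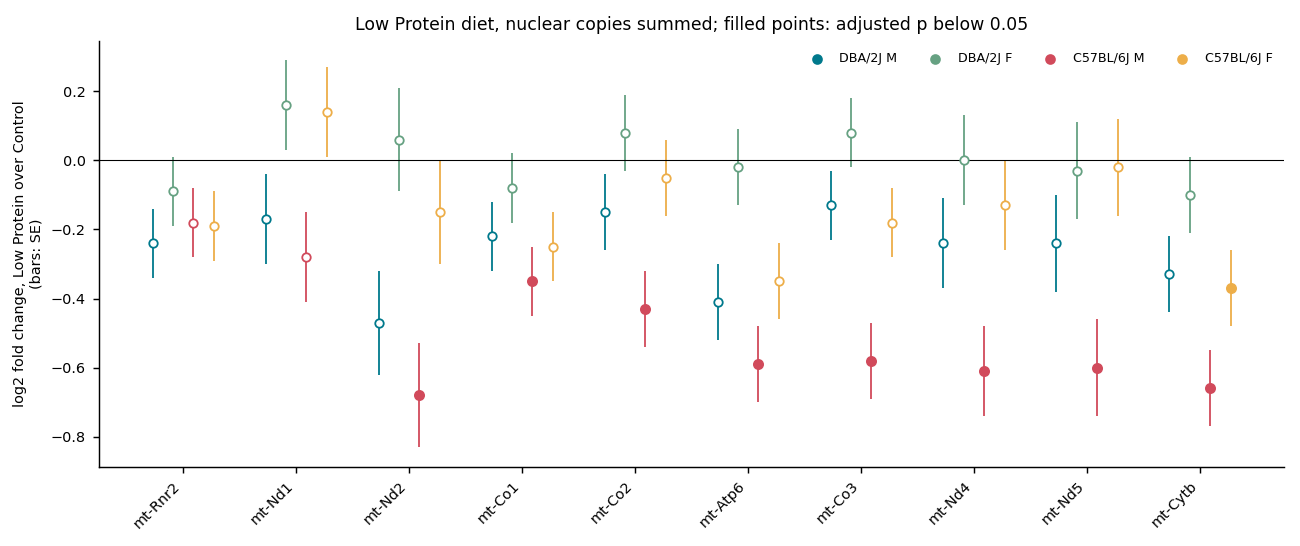
Log2 fold change of Low Protein over Control with its SE for the 10 transcripts, copy-summed, in DBA/2J males, DBA/2J females, C57BL/6J males and C57BL/6J females. Filled points have an edgeR adjusted p under 0.05. In C57BL/6J males 8 of the 10 are filled, between -0.35 and -0.68, in C57BL/6J females only mt-Cytb at -0.37, and in DBA/2J none; by library totals all genes in C57BL/6J males shift up, by 0.26 at the median.

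Against Medium Protein, the fall on Low Protein in C57BL/6J males passed for mt-Co1 (-0.31, adjusted p = 0.0439) and mt-Cytb (-0.45, adjusted p = 0.00506) taken alone (edgeR), where 6.53% of genes passed and 4.11% fell. Copy-summed, mt-Atp6 (-0.39, adjusted p = 0.0198), mt-Co3 (-0.50, adjusted p = 8.35e-04) and mt-Cytb passed (edgeR). Without Low Protein replicate 1, 8 members passed copy-summed.

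In the other 3 combinations few members passed. In C57BL/6J females on Low Protein, mt-Cytb stood at 967, 1477 and 1875 CPM, against 1565, 1860 and 2405 CPM on Control, with overlapping ranges (log2 fold change -0.37, SE 0.11, adjusted p = 0.041, edgeR). It was the only one of 10, where 3.25% of genes passed (3.24% with copies summed) and 1.78% fell, and the call was lost in 7 of the 12 fits that left out a library. Yet the share of all counts on the 15 genes fell in these females to 20.2% ± 0.929, against 22.9% ± 0.676 on Control, without overlap (adjusted p = 0.013, exact permutation). On Medium Protein it was 21% ± 1.24 (adjusted p = 0.0325 against Control, exact permutation). In DBA/2J females it was 16.4% ± 0.799 on Low Protein and 17.7% ± 0.697 on Control (adjusted p = 0.0297, exact permutation). With both ribosomal RNAs left out of the share and the total, none of these diet differences passed.

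In DBA/2J males no member passed on Low Protein (edgeR; limma-voom and DESeq2 also called 0), where 0.093% of genes did, and 3 members alone or 5 copy-summed had an unadjusted p under 0.05. The values were -0.47 for mt-Nd2 (SE 0.15, adjusted p = 0.31), -0.41 for copy-summed mt-Atp6 (SE 0.11, adjusted p = 0.154) and -0.33 for mt-Cytb (SE 0.11, adjusted p = 0.343, edgeR). In DBA/2J females mt-Atp6 alone passed upward, at 344, 593 and 682 CPM on Low Protein against 88.8, 322 and 414 CPM on Control (log2 fold change 0.92, SE 0.24, adjusted p = 0.0376, edgeR). It was 1 of 10 where 0.816% of genes passed (0.811% with copies summed), and copy-summed mt-Atp6 stood at -0.02 (SE 0.11, adjusted p = 0.971, edgeR). Likewise, mt-Atp6 alone was lower on Low Protein than on Medium Protein in C57BL/6J females (-0.98, adjusted p = 0.0144, edgeR), where 1.94% of genes passed, and copy-summed it differed by -0.17 (adjusted p = 0.516, edgeR). On Low Protein against Medium Protein, no member passed in DBA/2J (edgeR, limma-voom and DESeq2; 1 at an unadjusted p under 0.05 in each sex alone), where 0% of genes did in males and 0.0413% in females.

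Set against the other member mRNAs of the same library, mt-Nd1 took a larger share on Low Protein in C57BL/6J. Over all strains and sexes, its copy-summed share passed in 5 diet comparisons, 5 sex comparisons and 0 strain comparisons, not all given here. Its copy-summed log2 share was -3.82 ± 0.12 on Low Protein and -4.16 ± 0.15 on Control in C57BL/6J females (difference 0.34, adjusted p = 0.013, exact permutation). In C57BL/6J males it was -4.26 ± 0.08 on Low Protein and -4.44 ± 0.12 on Control (difference 0.18, adjusted p = 0.0289, exact permutation), a call lost without Low Protein replicate 1 (adjusted p = 0.0577, exact permutation). The share of mt-Atp6 was lower on Low Protein than on Control in C57BL/6J females (difference -0.15, adjusted p = 0.00742) and males (-0.13, adjusted p = 0.0312, exact permutation). In C57BL/6J males the shares of mt-Cytb (-0.19) and mt-Nd2 (-0.21) were also lower and that of mt-Co1 (0.11) higher on Low Protein. Without the 4 libraries over 5% ribosomal-like RNA, the calls in males for mt-Atp6 (adjusted p = 0.114), mt-Cytb (0.0653) and mt-Co1 (0.0816) were lost (exact permutation).

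Averaged over the 4 combinations of strain and sex, 6 members alone and 8 copy-summed fell on Low Protein, where 8.01% of genes passed and 4.17% fell (8% passed with copies summed). The log2 fold changes were -0.37 for mt-Cytb (SE 0.05, adjusted p = 4.36e-06, edgeR), -0.34 for copy-summed mt-Atp6, -0.31 for mt-Nd2, -0.25 for mt-Nd4, -0.23 for copy-summed mt-Co1, -0.22 for mt-Nd5, -0.20 for copy-summed mt-Co3 and -0.18 for mt-Rnr2. mt-Nd1 stood at -0.04 and copy-summed mt-Co2 at -0.14 (adjusted p = 0.125, edgeR). By library totals, 2 members alone and 4 copy-summed passed.

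On Medium Protein against Control, no member passed in any combination or on average, by edgeR, limma-voom or DESeq2. In that contrast 81 genes passed in C57BL/6J males (0.418%), 0 in C57BL/6J females (0%, with 1465 at an unadjusted p under 0.05), and 1 in DBA/2J of each sex (0.00516%, or 0.00517% with copies summed). Members at an unadjusted p under 0.05 numbered 2 in C57BL/6J males, 1 in C57BL/6J females, 4 in DBA/2J males, 1 in DBA/2J females and 5 on average. In DBA/2J males mt-Nd2 stood at -0.57 (SE 0.15, adjusted p = 0.503, edgeR) and copy-summed mt-Atp6 at -0.39 (SE 0.11, adjusted p = 0.588, edgeR). In the same males the log2 ratio of mt-Rnr2 to the mRNAs was 3.67 ± 0.08 on Medium Protein and 3.54 ± 0.06 on Control (difference 0.13, adjusted p = 0.0416, exact permutation), a call that was lost without the 4 libraries over 5% ribosomal-like RNA (adjusted p = 0.0831, exact permutation).

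Whether the Low Protein effect differed between groups was tested through interaction terms, and no member passed in any of the 4 contrasts by edgeR or limma-voom. Passing genes were 4.56% (4.57% with copies summed) for males minus females in C57BL/6J, 0% for males minus females in DBA/2J, 2.88% for DBA/2J minus C57BL/6J in males and 0.093% in females. At an unadjusted p under 0.05 there were 4, 2, 3 and 1 members alone in that order of contrasts. The nearest was mt-Nd5 in C57BL/6J, with -0.60 in males and -0.02 in females (difference -0.58, SE 0.20, adjusted p = 0.0681, edgeR). DESeq2 called 1 member in 3 of the contrasts, mt-Nd5 in the first, mt-Co3 in the third and mt-Atp6 in the last. Without Low Protein male replicate 1 of C57BL/6J, 4 members passed copy-summed for males minus females in C57BL/6J. These were mt-Nd5 (-0.72, adjusted p = 0.0196), mt-Co2 (-0.52, adjusted p = 0.0327), mt-Co3 (-0.50, adjusted p = 0.0327) and mt-Nd1 (-0.58, adjusted p = 0.036, edgeR). For DBA/2J minus C57BL/6J in males, copy-summed mt-Co3 passed without that library (0.56, adjusted p = 0.0222, edgeR). Outside the 10, mt-Rnr1 passed with -0.66 in males and -0.18 in females of C57BL/6J (difference -0.49, SE 0.15, adjusted p = 0.0477, edgeR), a call that was lost without the same library (adjusted p = 0.0566, edgeR). mt-Atp8 passed with -0.88 in males and 0.22 in females (difference -1.10, SE 0.29, adjusted p = 0.0166, edgeR). With all libraries in the fit, a Low Protein effect that differs by sex or strain is therefore not shown by edgeR for any of the 10.

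Between the sexes the members split by strain, and the direction of some hung on scaling. In C57BL/6J, 6 members were higher and 1, mt-Nd1, lower in males, both alone and copy-summed (42.2% of genes passed). Copy-summed, mt-Nd2 (0.26), mt-Nd4 (0.25), mt-Nd5 (0.24), mt-Cytb (0.22), mt-Rnr2 (0.20) and mt-Co3 (0.16) were higher and mt-Nd1 (-0.22, SE 0.07, adjusted p = 0.0121, edgeR) was lower. By library totals all genes shifted by -0.24 at the median, and mt-Rnr2 (-0.03), mt-Cytb (-0.00) and copy-summed mt-Co3 (-0.06) changed sign. In DBA/2J, 7 members passed copy-summed (39.3% of genes) and 4 alone (39.2%). mt-Rnr2 stood at 168458, 181478 and 190657 CPM in DBA/2J males on Control, against 109840, 121976 and 131132 CPM in females, without overlap. Its log2 fold change over the diets was 0.51 (SE 0.06, adjusted p = 1.06e-11, edgeR). Copy-summed mt-Co3 (0.29), mt-Co1 (0.28), mt-Co2 (0.26), mt-Atp6 (0.23) and mt-Cytb (0.23) were also higher in DBA/2J males, and mt-Nd4 was lower (-0.34, SE 0.07, adjusted p = 1.91e-04, edgeR). By library totals the median of all genes moved by -0.25, and mt-Cytb (-0.01) and copy-summed mt-Atp6 (-0.01) changed sign there. mt-Nd4 was thus higher in males of C57BL/6J and lower in males of DBA/2J, and this contrast between strains was not tested. mt-Rnr1 was higher in C57BL/6J males (0.55, SE 0.06) and stood at 0.05 in DBA/2J (SE 0.06, adjusted p = 0.539, edgeR).

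Within libraries, the log2 ratio of mt-Rnr2 to the mRNAs was higher in DBA/2J males than in DBA/2J females by 0.29 on Control, 0.40 on Medium Protein and 0.34 on Low Protein (adjusted p of 0.00866, 0.00866 and 0.0289, exact permutation). On Control it was 3.54 ± 0.06 in males and 3.26 ± 0.11 in females. In C57BL/6J it passed on Low Protein, with 3.28 ± 0.11 in males and 3.05 ± 0.16 in females (difference 0.23, adjusted p = 0.0289, exact permutation). That call was lost with nuclear copies added (adjusted p = 0.0831, exact permutation) and without Low Protein male replicate 1 (adjusted p = 0.0571, exact permutation). The log2 ratio of mt-Rnr1 to mt-Rnr2 ran in opposite directions. It was higher in C57BL/6J males than females by 0.60 on Control and 0.40 on Medium Protein, with a difference of 0.10 on Low Protein (adjusted p = 0.935, exact permutation), and it was lower in DBA/2J males than females by 0.47, 0.45 and 0.45 on Control, Medium Protein and Low Protein. The share of counts on the 15 genes was 20.2% ± 1.31 in DBA/2J males and 17.7% ± 0.697 in DBA/2J females on Control (adjusted p = 0.026, exact permutation). Genes counted as ribosomal-like RNA, among them the protein-coding Lars2, also differed in mean level between the sexes. CT010467.1 (4.82 and 3.95), Lars2 (4.40 and 3.69) and AY036118 (5.54 and 4.08) were higher in males of C57BL/6J and of DBA/2J by these log2 amounts. The 4 libraries over 5% ribosomal-like RNA were all male. They were C57BL/6J Control replicates 1 (12.7%) and 6 (35%), C57BL/6J Medium Protein replicate 6 (9.78%) and DBA/2J Control replicate 4 (10.1%). Many male libraries lay near the median of 0.166% over all libraries. These fold changes therefore do not describe a typical male library. The part of these genes in the result was not tested.

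Nuclear genes that serve the same complexes gave a mixed picture beside the members. In C57BL/6J males on Low Protein, 4 of 36 complex I subunits fell (list median -0.16), 3 of 9 of complex III (-0.19), 4 of 12 of complex IV (-0.22) and 5 of 18 of complex V (-0.18), and none rose, where 5.7% of all genes tested fell at a median of 0.01. Examples were Uqcrc1, a core subunit of complex III (-0.35, SE 0.09, adjusted p = 0.00349, edgeR), Cox6a1 of complex IV (-0.45, SE 0.11, adjusted p = 0.00271, edgeR), and Atp5c1 and Atp5a1 of the ATP synthase head (-0.30 and -0.24). In C57BL/6J females on Low Protein, by contrast, 3 of 36, 0 of 9, 2 of 12 and 2 of 18 rose and none fell in these lists, with medians of 0.21, 0.17, 0.19 and 0.15. Averaged over the 4 combinations, 7 of 36, 0 of 9, 2 of 12 and 3 of 18 rose and none fell, while 8 of the 10 members fell copy-summed. Over all genes tested, 3.84% rose in that average and 1.47% in the C57BL/6J females.

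Between strains, the nuclear subunits of complexes I and IV were not mostly lower in DBA/2J males, unlike the copy-summed members. This contrast covers complexes I and IV only, and the male counts for complexes III and V are not given. The part of complex I that was higher was near the share of all genes, and the part that was lower was below it. In DBA/2J males 8 of 36 complex I subunits were higher and 2 lower than in C57BL/6J males, and 4 of 12 complex IV subunits were higher and none lower, where 25.1% of all genes tested were higher and 26% lower. In females 22 of 36 complex I subunits were lower in DBA/2J and 2 higher, with 5 of 9, 7 of 12 and 12 of 18 lower and none higher in complexes III, IV and V, where 24.1% of all genes were higher and 25.7% lower. Uqcrb of complex III (-0.26 in males, -0.47 in females) and Atp5h of complex V (-0.41 and -0.52) were lower in both. Between the sexes of DBA/2J, 23 of 36, 5 of 9, 11 of 12 and 9 of 18 were higher in males, and 1 each of complexes I and V lower, where 20.7% of all genes were higher and 18.5% lower. In C57BL/6J these counts were 7, 1, 3 and 0 higher and 4, 1, 1 and 5 lower, where 21.3% of all genes were higher and 20.9% lower.

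Genes that make or mature mitochondrial RNA changed in places. Of 18 genes of transcription and replication of mitochondrial DNA, none passed on Low Protein in C57BL/6J males (edgeR). Over all genes tested, 9.78% passed in that contrast. Tefm, the elongation factor, stood at -0.32 (adjusted p = 0.063, edgeR). Of 28 genes of RNA processing and stability, Hsd17b10, a subunit of the RNase P that cuts transfer RNAs out of the precursor, fell (-0.57, SE 0.12, adjusted p = 6.10e-04, edgeR), and Rexo2, an oligoribonuclease, rose (0.32, adjusted p = 0.0253, edgeR). Lrpprc, which stabilises mitochondrial mRNAs, stood at 0.17 (adjusted p = 0.126, edgeR). Between strains, Hsd17b10 was lower in DBA/2J males (-0.71) and females (-0.79). Tfam, which packages mitochondrial DNA and starts its transcription, was higher in DBA/2J males (0.21, adjusted p = 1.67e-06, edgeR), and Mterf3, a repressor of that transcription, was lower in males (-0.32) and females (-0.37). These genes were picked from their lists, whose counts between strains are not given, nor is the value of Tfam in females. Of all genes tested, 51.1% passed between strains in males and 49.8% in females. Ppargc1a, a coactivator of mitochondrial biogenesis, was lower in DBA/2J males (-1.02) and females (-0.83), and lower in males than females in C57BL/6J (-0.97) and DBA/2J (-1.16). Over its list of 13 regulators, 3 were higher and 5 lower in DBA/2J males, and 2 higher and 6 lower in DBA/2J females, where 51.1% and 49.8% of all genes passed in these contrasts.

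Of the 78 mitochondrial ribosomal proteins, the partners of mt-Rnr2, Mrpl12 fell on Low Protein in C57BL/6J males (-0.40, adjusted p = 0.00407, edgeR) as the only one to pass. Over all genes tested, 9.78% passed in that contrast. Between strains 31 were higher and 7 lower in DBA/2J males, and 10 higher and 27 lower in DBA/2J females. The number passing was near the 51.1% and 49.8% of all genes that passed in these contrasts. In DBA/2J, 38 were higher and none lower in males than females, and in C57BL/6J 13 were higher and 12 lower, where 39.2% and 42.2% of all genes passed. Of 15 genes of the outer membrane and matrix, the chaperones Hspd1 (0.38) and Hspe1 (0.49) rose and the channel Vdac1 (-0.27) fell on Low Protein in C57BL/6J males. The same share of all genes, 9.78%, applies there.

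Markers of other cells moved with some of these contrasts. In C57BL/6J males on Low Protein, 4 of 6 red blood cell markers rose (median 1.22), at a summed 168, 378 and 478 CPM against 126, 164 and 259 CPM on Control, and 2 of 10 hepatocyte markers fell. Over all genes tested, 9.78% passed in that contrast and 5.7% fell. No gene of these 2 lists was at 0 in a group. The hepatocyte sum was 61840, 70758 and 93203 CPM on Low Protein, against 69101, 77952 and 82643 CPM on Control. Between strains, 3 of 6 cholangiocyte markers were lower in DBA/2J in each sex, with group medians of the summed level between 10.1 and 15.2 CPM in DBA/2J and between 26.1 and 31.7 CPM in C57BL/6J. The summed level of 6 pancreatic acinar markers, of which up to 4 were at 0 in a group, stood at 14.1, 18.7 and 24.8 CPM in DBA/2J males on Control, against 3.28, 5.44 and 6.37 CPM in C57BL/6J males. In Control females it stood at 7.37, 11.1 and 12.1 CPM in DBA/2J, against 2.58, 3.23 and 3.46 CPM in C57BL/6J. Of its 2 genes that passed the filter, 1 was higher and 1 lower in DBA/2J in each sex. Stellate cell and fibroblast markers summed to 428, 455 and 499 CPM in DBA/2J males on Control, against 286, 359 and 463 CPM in C57BL/6J males, with 2 of 7 higher and 2 lower. Of the T, NK and B cell markers, 4 of 9 were lower in DBA/2J in each sex and 1 was higher in males. Over all genes tested, 51.1% were called between strains in males (26% lower) and 49.8% in females (25.7% lower). The counts called for the cholangiocyte, stellate cell and T, NK and B cell lists were near those shares called in either direction. Red blood cell markers were lower for 4 of 6 and higher for 1 in DBA/2J males, and lower for 4 in DBA/2J females. Their summed level in males did not follow these counts on every diet. It had medians of 219, 200 and 243 CPM in DBA/2J males on Control, Medium Protein and Low Protein, against 164, 164 and 378 CPM in C57BL/6J males. The nuclear RNA Neat1 was lower in DBA/2J (-3.08 in males, -1.16 in females) and Malat1 higher (0.54 and 0.32). The part of these cells and RNAs in the members' differences was not tested.

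The authors' deposited table of diet comparisons was read for the same genes. It gives 6 members with a Benjamini-Hochberg p under 0.05 on Low Protein against Control in C57BL/6J males, mt-Nd2, mt-Co1, mt-Atp6, mt-Nd4, mt-Nd5 and mt-Cytb. In the authors' deposited table mt-Nd2 has a log2 fold change of -0.70 there (adjusted p = 0.00104). The column names of the authors' deposited table put Control first, and its signs match those of Low Protein over Control in these counts. The same table gives mt-Co1 and mt-Cytb on Low Protein against Medium Protein in C57BL/6J males, mt-Cytb on Low Protein against Control in C57BL/6J females, and mt-Atp6 alone in the same 2 contrasts of females as above, with none elsewhere.

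The genes whose 12 group means were most like the mean of the 9 member mRNAs, among 11564 candidates, depended on the copies. With the copies summed they were Sspn (r = 0.976), Cfhr2 (0.972), Thap6 (0.969), Gcdh (0.966) and Pdxdc1 (0.965). With the genes alone they were Mast3 (0.955), Klf13 (0.931), Arfgef2 (0.926), Acmsd (0.922) and Cog7 (0.916), and the lists shared 0 genes. These r describe 12 group means each.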

How the data were processed

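Liver RNA of 72 mice was sequenced as poly(A)-selected stranded libraries over 2 lanes that were merged, per the labels' protocols. The authors deposited expected counts per gene, and RSEM, edgeR, limma and R 3.4.3 are named in the submitters' processing notes. No source used here states the aligner, the strand setting or the genome build. The deposited comparison table holds the authors' log2 fold changes, p-values with their Benjamini-Hochberg adjustment, and an F score that was not used.

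Expected counts were rounded (11.6% of values were not whole), and genes were kept by edgeR's filterByExpr. Counts were scaled by TMM and fitted as 12 group means with edgeR 4.0.16 quasi-likelihood tests in R 4.3.3, adjusted over all 19362 genes (19356 with copies summed). A gene is called at an adjusted p under 0.05. The edgeR fits that left out 1 library kept the genes tested and the trend of the spread from the fit of all libraries. Their adjustment also included the copy-summed rows. A call near the threshold may therefore change through this procedure as well as through the library left out. limma 3.58.1 (voom) and DESeq2 1.42.0 were alternatives. Symbols and sequences came from GENCODE M21, which named 51633 genes and left 279 without a symbol, and copies were found with BLAST+ 2.17.0 at 99% identity over 90% of the copy. On counts simulated for Low Protein against Control in C57BL/6J males, the test recovered 59 of 100 genes changed by 1.5-fold and 87 of 100 changed by 2-fold, with 10 false calls among 19148 genes. Within-library measures, with 0.5 added to counts in shares, used exact permutation tests, adjusted over 24 comparisons. Levels are given as lowest, median and highest of 6. The labels mark separate animals, so p-values measure the spread between them. Summing the copies, leaving out the 4 libraries with over 5% ribosomal-like RNA or that RNA alone, and the ratio of mt-Rnr1 to mt-Rnr2 were chosen after seeing the data. The members and gene lists were chosen with earlier results of these data known. Besides the members and the other mitochondrial genes, up to 4 called genes and 2 not called were eligible for naming per list and comparison, by smallest p.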

Additional observations from a re-analysis of the deposited data

Results flagged for a closer look

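Of 156 group and measure combinations checked, 19 held a library whose gap to its nearest neighbour exceeded 0.625 of the range of the 6, a rule that chance meets in about 1 of 20 groups. Low Protein male replicate 1 of C57BL/6J accounted for 10 of them, all high. It held 223973 CPM of mt-Rnr2 (139720 to 164989 in the other 5), 1931 of mt-Nd1 (1067 to 1268), 1064 of mt-Nd2 (642 to 728), 1651 of mt-Nd5 (893 to 1161) and 2215 of mt-Cytb (1272 to 1554). Copy-summed, it held 15867 CPM of mt-Co1 (8806 to 10118), 2786 of mt-Co2 (1668 to 1848), 5309 of mt-Co3 (3557 to 3872) and 2398 of mt-Atp6 (1257 to 1389). Its share of counts on the 15 genes was 28%, against 19% to 20.6% in the others. Its part in the Low Protein comparison is given with that comparison.

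The other 9 were spread over 8 libraries. Copy-summed mt-Co1 was low at 10528 CPM in C57BL/6J Medium Protein male replicate 2 (others 13100 to 14578), and copy-summed mt-Co3 at 3347 CPM in C57BL/6J Control female replicate 1 (others 4681 to 5294). C57BL/6J Low Protein female replicate 1 had 444 CPM of mt-Nd2 (others 764 to 917) and a log2 ratio of mt-Rnr2 to the mRNAs of 3.37 (others 2.96 to 3.00). C57BL/6J Low Protein female replicate 6 had a log2 ratio of mt-Nd6 to the 12 other mRNAs of -6.87 (others -7.33 to -7.16). DBA/2J Control male replicate 4 had 17.8% of counts on the 15 genes (others 20.1% to 21.4%). The log2 ratio of mt-Rnr2 to the mRNAs was 3.51 in DBA/2J Medium Protein male replicate 4 (others 3.68 to 3.73) and 3.12 in DBA/2J Low Protein male replicate 2 (others 3.52 to 3.72). DBA/2J Low Protein male replicate 3 had 1281 CPM of mt-Nd1 (others 902 to 1039).

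The Low Protein effect differed between males and females of C57BL/6J by interaction test for mt-Rnr1 (-0.49 on the log2 scale, adjusted p = 0.0477, edgeR, and 0.0566 without Low Protein male replicate 1, where the call was lost) and mt-Atp8 (-1.10, adjusted p = 0.0166, edgeR), neither of them among the 10.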

How the results depend on the processing

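Of 2750 member fold changes under alternatives, 2669 kept direction and call, 50 lost and 18 gained a call and 13 changed sign. With library totals, members called were 4 on Low Protein against Control in C57BL/6J males (7 in the main setting), 0 against Medium Protein there (2), 0 in C57BL/6J females and in DBA/2J females (1 each), 2 averaged over the 4 combinations (6) and 3 for sex in C57BL/6J (7). With no filter, they were 1 against Medium Protein in C57BL/6J males and 0 in each female strain on Low Protein, and with only the groups compared all of these were 0. Without the 4 libraries over 5% ribosomal-like RNA, 1 was called against Medium Protein in C57BL/6J males. With copies summed, 0 were called on Low Protein against Medium Protein in C57BL/6J females and against Control in DBA/2J females, and 7 for sex in DBA/2J (4 alone). With copies summed and library totals, 1 was called against Medium Protein in C57BL/6J males (3), 0 on Low Protein in C57BL/6J females (1), 4 averaged (8) and 3 for sex in C57BL/6J (7). DESeq2 called 1 in each of 3 interaction contrasts (0 by edgeR). With both rRNAs left out, 5 of 24 shares of counts passed (8).

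Sign changes with copies summed were mt-Atp6 on Low Protein in DBA/2J females (-0.02), mt-Co3 (-0.30) and mt-Atp6 (-0.79) between strains in males, mt-Co3 (0.16) for sex in C57BL/6J and mt-Co2 (0.26) for sex in DBA/2J. With library totals they were mt-Rnr2 (-0.03), mt-Co1 (-0.09) and mt-Cytb (-0.00) for sex in C57BL/6J and mt-Cytb (-0.01) in DBA/2J, and with both, mt-Co2 (-0.17), mt-Co3 (-0.06) and mt-Atp6 (-0.15) in C57BL/6J and mt-Atp6 (-0.01) in DBA/2J. Other causes were not tested.

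Leaving out 1 library in turn, members called ranged, alone and then copy-summed, over 5 to 9 and 7 to 10 (Low Protein against Control, C57BL/6J males), 1 to 5 and 2 to 8 (against Medium Protein there), 0 to 1 and 0 to 3 (C57BL/6J females), 5 to 6 and 7 to 9 (averaged), 6 to 7 and 6 to 8 (sex, C57BL/6J), 4 to 5 and 7 to 7 (sex, DBA/2J), and 0 to 2 and 0 to 4 (interaction with sex, C57BL/6J). They ranged over 0 to 1 alone for mt-Atp6 in each female strain and 0 to 1 copy-summed for the strain interaction in males, and stayed at 6 and 9 and at 8 and 10 between strains. The passing shares of counts ranged over 7 to 9, mt-Rnr2 ratios 9 to 12, mt-Nd6 ratios 6 to 7 member shares 48 to 60 and copy-summed shares 59 to 66.

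Genes called on Low Protein in C57BL/6J males numbered 1894, 5652 by library totals (94.4% higher, against 41.7%) and 1258 with no filter, and averaged 1551, 2419 and 993. By library totals, 90.8% of called genes were higher against Medium Protein in C57BL/6J males (37.1% by TMM), 90.5% averaged (47.9%), 11% for sex in C57BL/6J (50.5%) and 9.75% in DBA/2J (52.8%). No paired analysis was possible because replicate numbers here follow accession order, no code in the titles recurs between diets of a strain and sex, and the up to 2 codes that recur between strains, or 1 between sexes, of a diet name different animals.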
